A study of Mus musculus with 6 samples.

Results

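Lysosomal enzymes and membrane proteins were followed across 6 subcutaneous mouse tumours, 3 injected with PV-10 and 3 with PBS. The set holds 38 protein-coding genes, listed by name for their place in the lysosome, with earlier results of these data known, among 55450 genes in the tables. All 38 were found, each with 1 row, and all 38 passed the filter on low counts. The set has 12 proteases, 11 enzymes that degrade glycans, 6 proteins of lipid handling, 6 proteins of the lysosomal membrane and 3 others (Grn, Acp2 and Tfeb). Both groups of tumours were grown under the skin of the right flank of C57BL/6 mice from MTE-RAS cells, a line of cancer cells from mouse tracheal epithelium transformed by an oncogenic RAS mutation. The PV-10 group received PV-10, a solution of rose bengal, into the lesion, and the PBS group received buffer by the same route. Dose, interval to collection, age and sex are not given in the sources used here. The tumours come from 1 cell line, and each library is total RNA of a whole tumour, so cells of the host were sequenced with the injected cells.

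Library totals ran from 36730318 to 94203331 counts in the PV-10 tumours, and from 87386266 to 98717951 counts in the PBS tumours. Protein-coding genes took 71.3% to 76.9% of counts in the PV-10 tumours, against 87.1% to 89.0% in the PBS tumours. Of the markers of the labelled epithelium, Krt18 stood at 97.4, 111 and 169.6 TPM in the PV-10 tumours and 210.3, 181 and 219 TPM in the PBS tumours, while Epcam did not exceed 0.540 TPM and Krt5 did not exceed 0.250 TPM in any of the 6. The 10 epithelial markers, all tested and none called, had a median log2 change of 0.30 between PV-10 and PBS tumours, with 7 above 0. They summed to 191, 221 and 346 TPM in the PV-10 tumours, against 472, 403 and 463 TPM in the PBS tumours, without overlap. By CPM they summed to 803, 780 and 968 in the PV-10 tumours, against 1090, 689 and 875 in the PBS tumours, with overlap. PV-10 tumour 3 stood apart from the other PV-10 tumours: over all genes tested its log2 CPM correlated at 0.874 and 0.822 with PV-10 tumours 1 and 2, and at 0.909, 0.919 and 0.930 with PBS tumours 1, 2 and 3. Results that rest on it are given with and without it. Whether tumours shared a batch of cells or a day of injection is not stated, so p-values measure only the spread between these tumours.

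The lysosome is the acidic organelle in which cells break down proteins, glycans and lipids brought in by endocytosis or autophagy. Soluble hydrolases such as the cathepsins are carried there by mannose 6-phosphate receptors, are kept active by the proton pump of the membrane, and work behind a lining of heavily glycosylated proteins, chief among them LAMP1 and LAMP2. Many lysosomal genes are under the transcription factor TFEB, which mTORC1 at the lysosomal surface holds in the cytosol, and which binds a short E-box-like element known as the CLEAR motif. Rose bengal, the dye in PV-10, is reported to gather in lysosomes, and macrophages, which enter many tumours, are rich in them.

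The promoters are shown because many lysosomal genes are known targets of TFEB, and they let the members be sorted by a feature not taken from their expression here. An excess of the motif among genes chosen as lysosomal is therefore not an independent finding. RefSeq promoter windows on GRCm38.p6, from 250 bases before to 50 bases after each gene's start, were at hand for 34 of the 38 members; Asah1, Npc1, Ctsb and Ctsh had no entry. Some genes have more than 1 window, and a gene was counted where any of its windows held the motif. The element GTCACGTG, searched on both strands, contains the E-box CACGTG and was found for 10 of the 34 members (29.4%), against 689 of 27025 genes (2.55%). Followed by AC, which makes the full CLEAR palindrome, it was found for 1 of the 34 (Cln3), against 100 of the 27025 (0.370%). CACGTG by itself was found for 13 of the 34 (38.2%), against 2187 of the 27025 (8.09%). Among tested protein-coding genes with a promoter entry, 512 had GTCACGTG and 11924 did not, while 1325 had CACGTG and 11111 did not. In the other lists described below, GTCACGTG was found for 1 of 15 further hydrolases and 1 of 15 further membrane proteins. It was found for 2 of 13 proton pump genes, 4 of 7 sorting genes and 2 of 20 regulators around TFEB and mTORC1. Cathepsin inhibitors gave 0 of 8, and membrane damage and autophagy genes 1 of 17. A window of 30 bases from each of the 10 members follows, read 5′ to 3′ on the gene's strand, with GTCACGTG or its reverse complement in capitals. Ctsa, Ctsd and Mcoln1 each have a second, separate match, which is not printed. In Cln3 the match on the other strand overlaps the printed one within the full palindrome.
Cln3, chr7:126583341-126583370, minus strand: tcacgggtactGTCACGTGacccccaacct
Ctsa, chr2:164833748-164833777, plus strand: atgagcaaactGTCACGTGatgcagatgct
Ctsd, chr7:142387907-142387936, minus strand: cgcccgcgtctCACGTGACccgttgagggc
Gla, chrX:134601183-134601212, minus strand: gtgagatctcgGTCACGTGagcaactctcg
Glb1, chr9:114401017-114401046, plus strand: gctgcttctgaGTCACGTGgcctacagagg
Lamp1, chr8:13159122-13159151, plus strand: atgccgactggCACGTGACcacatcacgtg
Lgmn, chr12:102439125-102439154, minus strand: atggaatgtctGTCACGTGgtccattttat
Mcoln1, chr8:3500435-3500464, plus strand: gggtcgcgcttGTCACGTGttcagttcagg
Naglu, chr11:101070008-101070037, plus strand: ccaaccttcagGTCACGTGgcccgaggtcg
Sgsh, chr11:119355521-119355550, minus strand: ggcctgccgtgCACGTGACcgtggggagcg

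Members with and without the element overlapped in their change in PV-10 tumours. The log2 change between PV-10 and PBS tumours had a median of -0.54 over the 10 members with GTCACGTG, of which 9 were below 0 and Ctsd, at 0.11, was above. It had a median of -0.22 over the 24 members without it, of which 13 were below 0. Over all tested protein-coding genes with a promoter entry the medians were -0.17 for 512 genes with the element and 0.04 for 11924 without it. These are descriptions without a test, and a match to these letters is not a measured binding site.

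Of the 38 lysosomal genes, 1 fell in PV-10 tumours and none rose. The one that fell was Npc1, the membrane protein that moves cholesterol out of the lysosome, with a log2 change of -1.15. Most enzymes that cut glycans, the protease gene Tpp1 and the progranulin gene Grn had lower values in PV-10 tumours but did not pass the test, while Cd63, Npc2, Ctsh, Asah1 and Lamp2 had higher values and did not pass it either. By edgeR's quasi-likelihood test, adjusted over 22056 genes, 5.09% of all genes were called, 3.17% higher and 1.92% lower, so that 1 lower call in 38 (2.63%) was near the background. The members' log2 changes ran from -1.52 in Arsb to 0.96 in Cd63, with a median of -0.35, against 0.30 over all genes tested and 0.06 over the 16153 protein-coding ones. In all, 14 members were above 0 and 24 below. At an unadjusted p under 0.05 stood 15 of 38 members, against 6627 of all 22056 genes (30.0%) and 5698 of the 16153 protein-coding ones. The members' share was near that of the protein-coding genes. With DESeq2, the tool the labels name, 4 members were called higher and 7 lower, against 19.6% and 7.82% of all genes.

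**Figure D1:**
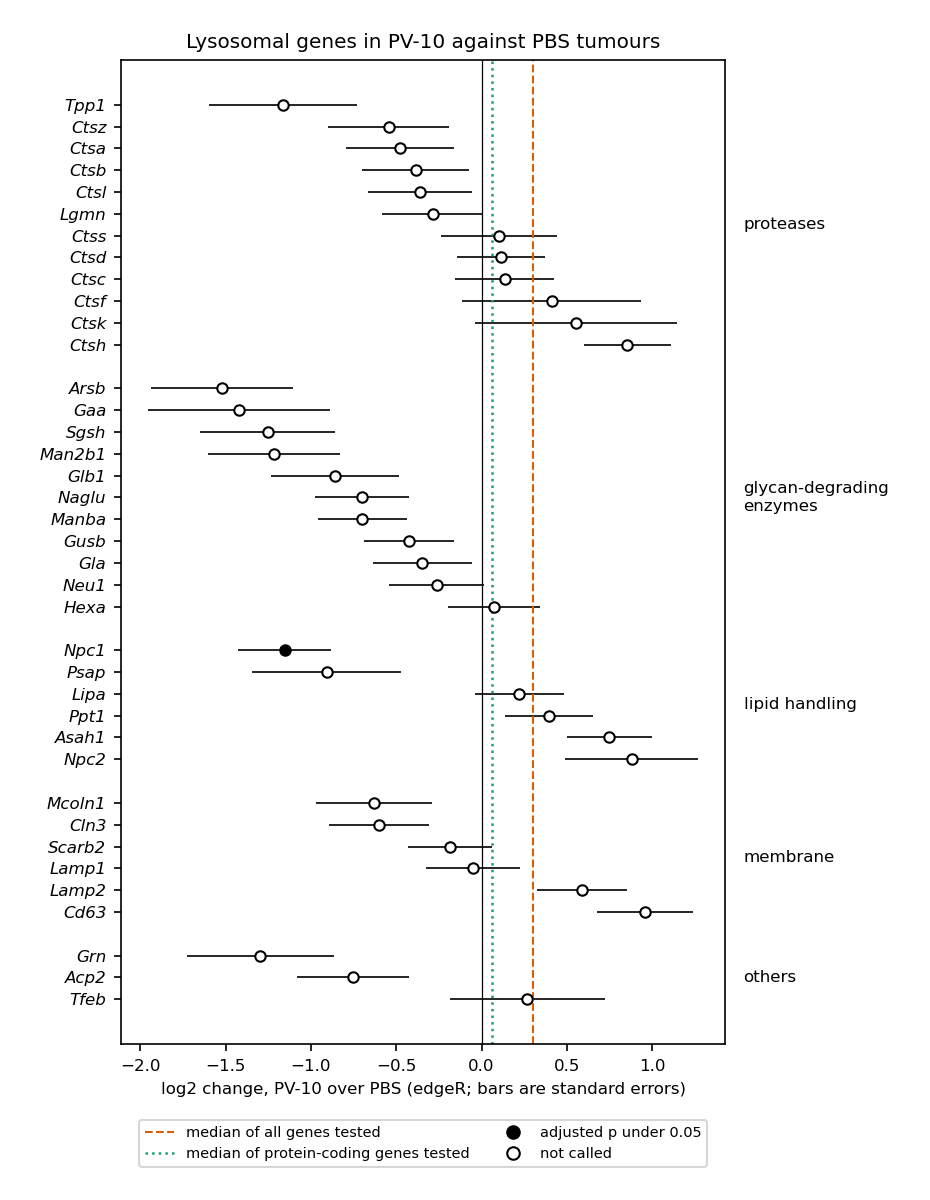
Log2 change of each lysosomal gene, PV-10 over PBS (x axis), by role class (rows); points are edgeR estimates, bars are 1 SE, and Npc1 is marked as the gene that passed the test. The members lie between -1.52 and 0.96, with the glycan-degrading enzymes mostly to the left of 0.

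By CPM, which divide counts by the library's size and were scaled by TMM, the PV-10 and PBS tumours did not overlap for 14 members. All 3 PV-10 tumours were above all 3 PBS tumours in 5 of 38 (Ctsh, Asah1, Ppt1, Lamp2 and Cd63), which is 13.2%, against 22.0% of all genes tested. All 3 PV-10 tumours were below all 3 PBS tumours in 9 of 38 (Glb1, Gaa, Man2b1, Manba, Naglu, Sgsh, Arsb, Npc1 and Grn), which is 23.7%, against 16.8% of all genes tested. Of the protein-coding genes tested, 21.4% lay above in this way and 21.5% below, so the members' share below was near that background. By TPM, which also divide by transcript length, 0 members had all PV-10 tumours above the PBS tumours, against 9.58% of all genes, and 21 had all of them below (55.3%), against 31.0% of all genes and 38.5% of protein-coding ones. These counts depended on the scale: 33 of 38 members had a lower mean TPM in PV-10 tumours, and 9 had a positive CPM change but a lower mean TPM. On log2(TPM + 1) with limma the members' median was -1.03, 10 fell and none rose, against 12.5% and 0.734% of all genes. With TPM rescaled to protein-coding genes alone, an alternative added after the data were seen, the median was -0.68 and the same 10 genes fell (Tpp1, Glb1, Gaa, Man2b1, Naglu, Arsb, Psap, Npc1, Grn and Acp2), against 14.3% of the genes tested there (2.97% rose).

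**Figure D2:**
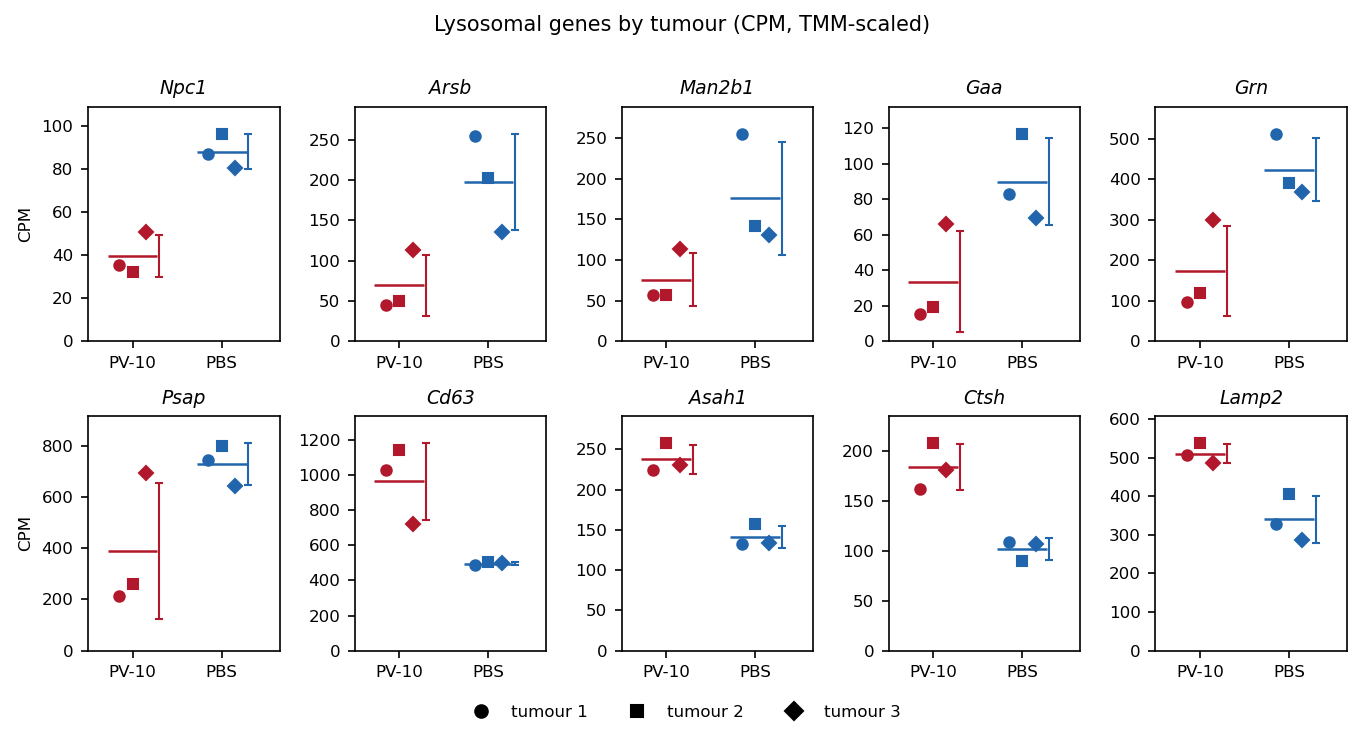
TMM-scaled CPM (y axis, linear from 0) of 10 lysosomal genes in each of 3 PV-10 and 3 PBS tumours; points are tumours, lines are means and bars are 1 SD, drawn no lower than 0, and the genes were picked with their values known. In the upper row and in Psap, PV-10 tumours 1 and 2 lie lowest; in Cd63, Asah1, Ctsh and Lamp2 every PV-10 tumour lies above every PBS tumour.

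Among the glycan-degrading enzymes, which take sugars and sulfate groups off glycoproteins, glycolipids, glycogen and glycosaminoglycans, 10 of 11 had negative log2 changes, with a median of -0.70, and none passed the test. In 7 of 11 (Glb1, Gaa, Man2b1, Manba, Naglu, Sgsh and Arsb) every PV-10 tumour was below every PBS tumour in CPM (63.6%), against 16.8% of all genes tested and 21.5% of protein-coding ones. Arsb (ENSMUSG00000042082.7, mm10 chromosome 13, 93771630 to 93943016, plus strand) encodes the sulfatase that acts on dermatan and chondroitin sulfate. It had 44.4, 49.9 and 113 CPM in PV-10 tumours 1, 2 and 3, against 255, 203 and 136 CPM in PBS tumours 1, 2 and 3. The PV-10 tumours were all lower, with tumour 3 next to the lowest PBS tumour (69.1 ± 38.1 CPM in PV-10 and 198 ± 59.8 CPM in PBS tumours, SD, n = 3; log2 change -1.52, SE 0.42, edgeR adjusted p = 0.0584). The gene for acid alpha-mannosidase, Man2b1, which trims mannose from glycoproteins, had 56.5, 57.0 and 114 CPM in the PV-10 tumours, against 256, 142 and 130.3 CPM in the PBS tumours. PBS tumour 1 was far above the rest, and the groups did not overlap (log2 change -1.22, SE 0.39, edgeR adjusted p = 0.0766). The glycogen-degrading acid alpha-glucosidase gene Gaa had 15.2, 19.0 and 66.2 CPM in the PV-10 tumours, against 82.9, 117 and 69.3 CPM in the PBS tumours. PV-10 tumours 1 and 2 were several times below PV-10 tumour 3, which came just under the lowest PBS tumour (log2 change -1.42, SE 0.53, edgeR adjusted p = 0.109).

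Gla, whose product removes terminal galactose from globotriaosylceramide, had 11.2, 13.2 and 18.4 CPM in the PV-10 tumours, against 21.1, 19.1 and 14.3 CPM in the PBS tumours. Its groups overlapped through PV-10 tumour 3 (log2 change -0.35, SE 0.29, edgeR adjusted p = 0.446). Sgsh and Naglu, which encode enzymes of heparan sulfate breakdown, were singled out after their values were seen. Sgsh had 4.89, 6.87 and 14.4 CPM in the PV-10 tumours, against 20.8, 23.5 and 18.1 CPM in the PBS tumours. Naglu had 25.4, 24.7 and 38.8 CPM in the PV-10 tumours, against 51.8, 51.1 and 41.6 CPM in the PBS tumours. Neither gene's groups overlapped in CPM, with edgeR adjusted p = 0.0739 for Sgsh and 0.123 for Naglu. The beta-galactosidase gene Glb1 had a log2 change of -0.86, the beta-mannosidase gene Manba -0.70, the beta-glucuronidase gene Gusb -0.43 and the sialidase gene Neu1 -0.26. Hexa, the alpha subunit of beta-hexosaminidase, was the single one above 0, at 0.07. Summed over the 11, the TPM level was 52.5, 59.9 and 154 TPM in the PV-10 tumours, against 258, 306 and 231 TPM in the PBS tumours. The median log2 change of these enzymes was negative under every alternative run, between -1.62 and -0.30.

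The 12 proteases were evenly divided, 6 above and 6 below 0, with a median log2 change of -0.09, and none passed the test. Ctsb (ENSMUSG00000021939.8, mm10 chromosome 14, 63122462 to 63145923, plus strand) encodes cathepsin B, an abundant cysteine protease that can act in the cytosol when lysosomes leak. It had 765, 703 and 1316 CPM in PV-10 tumours 1, 2 and 3, against 1284, 1188 and 1167 CPM in PBS tumours 1, 2 and 3. PV-10 tumours 1 and 2 were the lowest of the 6 and PV-10 tumour 3 was the highest (928 ± 337 CPM in PV-10 and 1213 ± 62.3 CPM in PBS tumours, SD, n = 3; log2 change -0.39, SE 0.31, edgeR adjusted p = 0.431). The cathepsin L gene Ctsl, another broad cysteine protease, had 169, 234 and 286 CPM in the PV-10 tumours, against 228, 364 and 294 CPM in the PBS tumours. Its groups overlapped (log2 change -0.36, SE 0.31, edgeR adjusted p = 0.451). The gene for legumain, Lgmn, which cuts after asparagine and matures the cathepsins, had 292, 284 and 423 CPM in the PV-10 tumours, against 506, 363 and 349 CPM in the PBS tumours. PV-10 tumours 1 and 2 were below all PBS tumours and PV-10 tumour 3 was among them (log2 change -0.29, SE 0.29, edgeR adjusted p = 0.534).

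Ctss, which encodes the cathepsin that trims the invariant chain in antigen-presenting cells, had 147, 229 and 335 CPM in the PV-10 tumours, against 273, 192 and 197 CPM in the PBS tumours. The groups overlapped (log2 change 0.10, SE 0.34, edgeR adjusted p = 0.858), and the sign of its change turned on the TPM scale (-0.76 on log2(TPM + 1)). Ctsh, an aminopeptidase of the cathepsin family, was singled out after its values were seen: it had 162, 208 and 181 CPM in the PV-10 tumours, against 109, 89.2 and 106 CPM in the PBS tumours. All PV-10 tumours were above all PBS tumours, and tumour 3 lay between the other PV-10 tumours (log2 change 0.85, SE 0.25, edgeR adjusted p = 0.0666). Tpp1, the tripeptidyl peptidase lost in a human childhood neuronal ceroid lipofuscinosis and also singled out after its values were seen, had 52.8, 70.1 and 165 CPM in the PV-10 tumours, against 251, 237 and 158 CPM in the PBS tumours. The lowest were again PV-10 tumours 1 and 2 (log2 change -1.16, SE 0.43, edgeR adjusted p = 0.108). The other members of the class had log2 changes of -0.54 in Ctsz, -0.48 in Ctsa, 0.11 in Ctsd, 0.14 in Ctsc and 0.41 in Ctsf.

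Ctsk, best known as the collagen-degrading cathepsin of osteoclasts, varied widely among the PBS tumours. By TPM it stood at 17.5, 13.4 and 12.5 in PV-10 tumours 1, 2 and 3, against 7.83, 43.4 and 6.80 in PBS tumours 1, 2 and 3. PBS tumour 2 was the highest of the 6, the other PBS tumours were the lowest, and the groups overlapped. Mean TPM was lower in the PV-10 tumours (14.5 against 19.4). By CPM it had 57.0, 40.3 and 27.7 in the PV-10 tumours, against 14.9, 59.7 and 10.6 in the PBS tumours. On that scale PBS tumour 2 was close to PV-10 tumour 1. The change fitted on counts was above 0 (log2 change 0.55, SE 0.59, edgeR adjusted p = 0.553). All osteoclast markers listed other than Calcr were also highest in PBS tumour 2. Among them, Acp5, the acid phosphatase by which osteoclasts are stained, stood at 4.08, 6.33 and 13.1 TPM in the PV-10 tumours and 11.9, 77.1 and 5.11 TPM in the PBS tumours. Mmp9, a matrix gelatinase, stood at 3.60, 2.85 and 6.19 TPM in the PV-10 tumours and 8.67, 77.6 and 4.48 TPM in the PBS tumours. The 8 osteoclast markers, all tested and none called, summed to 10.2, 12.1 and 26.0 TPM in the PV-10 tumours, against 24.9, 175 and 15.8 TPM in the PBS tumours; Calcr was at 0 in PV-10 tumour 3 and PBS tumour 3, and Oscar in PV-10 tumour 2. Without PBS tumour 2 the log2 change of Ctsk was 1.67 (edgeR adjusted p = 0.0821). In bulk tumours, fewer cells of a type and less RNA per cell cannot be told apart.

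**Figure D3:**
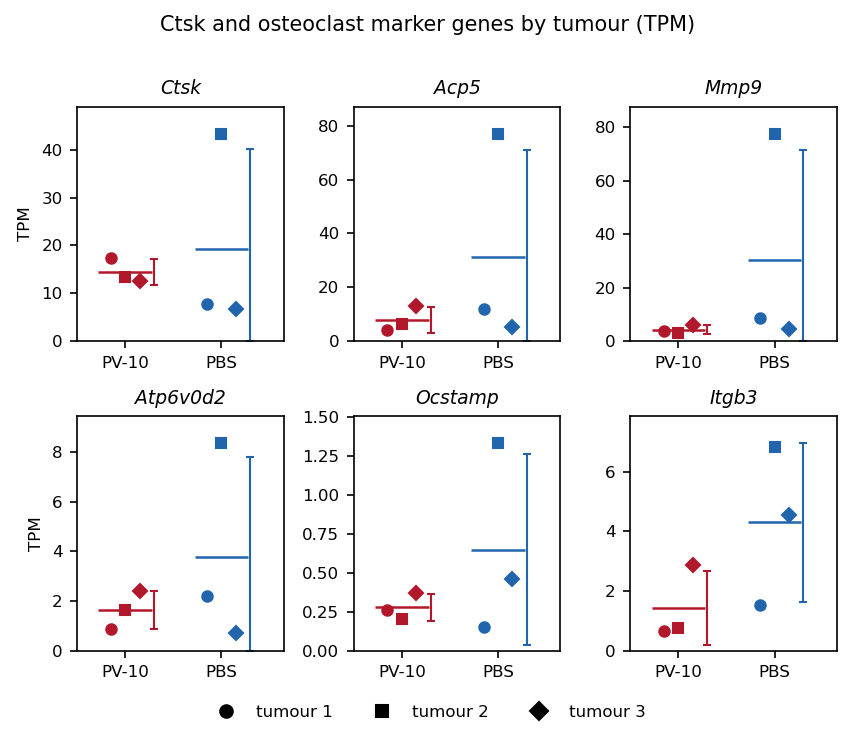
TPM (y axis, linear from 0) of Ctsk and 5 osteoclast marker genes in 3 PV-10 and 3 PBS tumours; points are tumours, lines are means and bars are 1 SD, drawn no lower than 0. PBS tumour 2 is the highest of the 6 in each panel, at 43.4 TPM for Ctsk and 77.1 TPM for Acp5.

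The lipid-handling members were mixed, with 4 above and 2 below 0 and a median log2 change of 0.31. Npc1 (ENSMUSG00000024413.14) had 35.7, 32.3 and 50.9 CPM in PV-10 tumours 1, 2 and 3, against 87.3, 96.7 and 80.6 CPM in PBS tumours 1, 2 and 3. All PV-10 tumours were below all PBS tumours with a clear gap (39.6 ± 9.89 CPM in PV-10 and 88.2 ± 8.10 CPM in PBS tumours, SD, n = 3; log2 change -1.15, SE 0.27, edgeR adjusted p = 0.0480). By TPM it stood at 5.10, 4.32 and 11.6 in the PV-10 tumours and 16.4, 25.2 and 19.9 in the PBS tumours, again without overlap. Npc1 kept its direction under all 22 alternatives, with log2 changes from -1.65 to -0.71, and was called in 13 of them. It was not called when any 1 tumour other than PV-10 tumour 3 was left out (log2 changes -1.24 to -1.04, edgeR adjusted p 0.109 to 0.222), when each library's length trend was removed (-0.72, adjusted p = 0.0765) or when PV-10 tumour 3 alone was set against PBS (-0.78, adjusted p = 0.180, both edgeR). Npc2, the soluble partner that hands cholesterol to NPC1, had 460.3, 542 and 346 CPM in the PV-10 tumours, against 389.7, 194 and 149 CPM in the PBS tumours. Its direction was the opposite of that of Npc1, but the groups overlapped and it did not pass the test (log2 change 0.88, SE 0.39, edgeR adjusted p = 0.164). The TPM of Npc2 over that of Npc1 was 14.0, 22.7 and 7.86 in the PV-10 tumours, against 7.05, 3.07 and 2.58 in the PBS tumours.

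Psap (ENSMUSG00000004207.14, mm10 chromosome 10, 60277627 to 60302597, plus strand) encodes prosaposin, the precursor of the saposins that lift sphingolipids to their hydrolases. It had 214, 259 and 694 CPM in the PV-10 tumours, against 746, 801 and 642 CPM in the PBS tumours. PV-10 tumours 1 and 2 were far below the other 4 libraries, and PV-10 tumour 3 lay among the PBS tumours (389 ± 265 CPM in PV-10 and 729 ± 80.8 CPM in PBS tumours, SD, n = 3; log2 change -0.91, SE 0.44, edgeR adjusted p = 0.197). Without PV-10 tumour 3, Psap fell, with a log2 change of -1.63 (edgeR adjusted p = 0.000899). Asah1, the acid ceramidase that works with a saposin as cofactor, had 224, 258 and 230.4 CPM in the PV-10 tumours, against 133, 157 and 133 CPM in the PBS tumours. Its PV-10 tumours were all above its PBS tumours and close to each other (237 ± 17.9 CPM in PV-10 and 141 ± 14.0 CPM in PBS tumours, SD, n = 3; log2 change 0.75, SE 0.25, edgeR adjusted p = 0.0812). By TPM the ratio of Asah1 to Psap was 1.04, 1.04 and 0.326 in the PV-10 tumours, against 0.177, 0.204 and 0.213 in the PBS tumours. On log2(TPM + 1) the change of Asah1 was -0.05, so its direction depended on the scale. Lipa, the acid lipase for cholesteryl esters, and Ppt1, a thioesterase that strips palmitate from proteins, had log2 changes of 0.22 and 0.40, both below 0 by TPM.

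Among the 6 membrane proteins 2 (Cd63 and Lamp2) had log2 changes above 0 and 4 below, with a median of -0.12, and none passed the test. Lamp2 (ENSMUSG00000016534.15, mm10 chromosome X, 38401357 to 38456454, minus strand), which also serves chaperone-mediated autophagy, had 507, 538 and 487 CPM in PV-10 tumours 1, 2 and 3, against 328, 406 and 286 CPM in PBS tumours 1, 2 and 3. All PV-10 tumours were above all PBS tumours, without passing the test (511 ± 25.4 CPM in PV-10 and 339.9 ± 60.6 CPM in PBS tumours, SD, n = 3; log2 change 0.59, SE 0.26, edgeR adjusted p = 0.169). Lamp1, the other main coat protein, had 299, 238 and 358 CPM in the PV-10 tumours, against 349, 317 and 262 CPM in the PBS tumours. Its groups overlapped (log2 change -0.05, SE 0.28, edgeR adjusted p = 0.916). By TPM the ratio of Lamp2 to Lamp1 was 1.68, 2.32 and 1.38 in the PV-10 tumours, against 0.969, 1.25 and 1.02 in the PBS tumours, with every PV-10 tumour above every PBS tumour. Cd63 (ENSMUSG00000025351.14, mm10 chromosome 10, 128900989 to 128912822, plus strand), a tetraspanin of late endosomes, lysosomes and exosomes, had 1031, 1141 and 721 CPM in the PV-10 tumours, against 489, 503 and 497 CPM in the PBS tumours. The PV-10 tumours were higher, PV-10 tumour 3 least so (964 ± 218 CPM in PV-10 and 496 ± 6.89 CPM in PBS tumours, SD, n = 3; log2 change 0.96, SE 0.28, edgeR adjusted p = 0.0645), while by TPM the groups overlapped at 478, 571 and 489.5 in the PV-10 tumours and 390.0, 553 and 480.2 in the PBS tumours. Mcoln1, the calcium channel TRPML1 that signals from the lysosome to TFEB, had 9.83, 14.4 and 24.6 CPM in the PV-10 tumours, against 24.9, 27.9 and 22.9 CPM in the PBS tumours. The groups overlapped, with PV-10 tumours 1 and 2 lowest (log2 change -0.63, SE 0.34, edgeR adjusted p = 0.248). The log2 changes of Cln3, a membrane protein lost in human juvenile ceroid lipofuscinosis, and Scarb2, the receptor that carries glucocerebrosidase, were -0.60 and -0.18.

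Grn (ENSMUSG00000034708.11, mm10 chromosome 11, 102430315 to 102437048, plus strand) encodes progranulin, a secreted and lysosomal glycoprotein that binds prosaposin and supports hydrolase activity. It had 97.6, 119 and 300.2 CPM in PV-10 tumours 1, 2 and 3, against 513, 389.7 and 368 CPM in PBS tumours 1, 2 and 3. PV-10 tumours 1 and 2 were lowest and PV-10 tumour 3 was just under the PBS tumours, so the groups did not overlap (172 ± 111 CPM in PV-10 and 424 ± 78.2 CPM in PBS tumours, SD, n = 3; log2 change -1.30, SE 0.43, edgeR adjusted p = 0.0817). Acp2, the lysosomal acid phosphatase, had 21.0, 26.3 and 46.5 CPM in the PV-10 tumours, against 57.1, 54.6 and 46.5 CPM in the PBS tumours. PV-10 tumour 3 was level with the lowest PBS tumour and the other PV-10 tumours were below it (log2 change -0.75, SE 0.33, edgeR adjusted p = 0.158). Tfeb, the regulator itself, ranked 37 of 38 members by mean TPM in both groups. It stood at 2.20, 2.00 and 2.51 TPM in the PV-10 tumours and 0.720, 2.29 and 1.59 TPM in the PBS tumours. PBS tumour 1 was the lowest and the groups overlapped (log2 change 0.27, SE 0.45, edgeR adjusted p = 0.718), and without PBS tumour 1 the log2 change was -0.08. The tables measure RNA, not where the TFEB protein was in the cell.

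The order of the members by length-adjusted level was much the same in both groups, with a Spearman rho of 0.936 between group mean TPM over the 38 genes, a description across genes that share their libraries. The 5 highest mean TPM in PV-10 tumours were those of Cd63 (513 ± 50.7), Lamp2 (122 ± 22.7), Ctsb (106 ± 63.2), Ctss (103 ± 61.8) and Lgmn (98.2 ± 45.4) (SD, n = 3). The 5 highest in PBS tumours were those of Cd63 (474 ± 81.5), Psap (250.0 ± 55.8), Ctsb (233 ± 37.9), Ctsl (216 ± 84.7) and Lgmn (197 ± 17.6) (SD, n = 3). Cd63 led in both. In each of these orders the step after Cd63 was larger than the SD of either neighbour, and every later step was smaller than the larger SD of its neighbours, so those members are not separated beyond their spread. Summed TPM of the 38 members was 1438, 1719 and 2657 TPM in the PV-10 tumours, against 2857, 3709 and 2971 TPM in the PBS tumours, without overlap, and PV-10 tumour 3 was nearest to the PBS tumours. Summed CPM was 5874, 6242 and 8096 CPM in the PV-10 tumours, against 7963, 7411 and 6572 CPM in the PBS tumours, with PV-10 tumour 3 the highest of the 6.

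For most members PV-10 tumours 1 and 2 lay farther from the PBS tumours than PV-10 tumour 3 did. In 27 of 38 members (71.1%) PV-10 tumour 3 was the PV-10 tumour nearest to the PBS mean in CPM, as it was in 68.2% of all genes tested. Without it, edgeR called 22 of 38 members, 4 higher (Ctsh, Asah1, Lamp2 and Cd63) and 18 lower, against 41.4% of all genes, 25.0% higher and 16.4% lower. The 18 that fell were Ctsa, Ctsb, Ctsz, Tpp1, Glb1, Gaa, Gusb, Man2b1, Manba, Naglu, Sgsh, Arsb, Psap, Npc1, Mcoln1, Cln3, Grn and Acp2. The largest falls among them on the log2 scale were those of Gaa (-2.39), Arsb (-2.07), Grn (-1.97), Sgsh (-1.83) and Tpp1 (-1.81). The median over the members was -0.56 with PV-10 tumours 1 and 2. Set alone against PBS, PV-10 tumour 3 gave a median of 0.04 and 0 calls among the members (0.0749% of all genes were called), with the 3 PBS tumours giving the spread. Arsb (-0.80), Npc1 (-0.78) and Man2b1 (-0.62) were its lowest members, and Ctsh (0.84), Ppt1 (0.72) and Asah1 (0.72) its highest. Ctsh, Asah1 and Lamp2 were about as high in PV-10 tumour 3 as in the other PV-10 tumours.

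**Figure D4:**
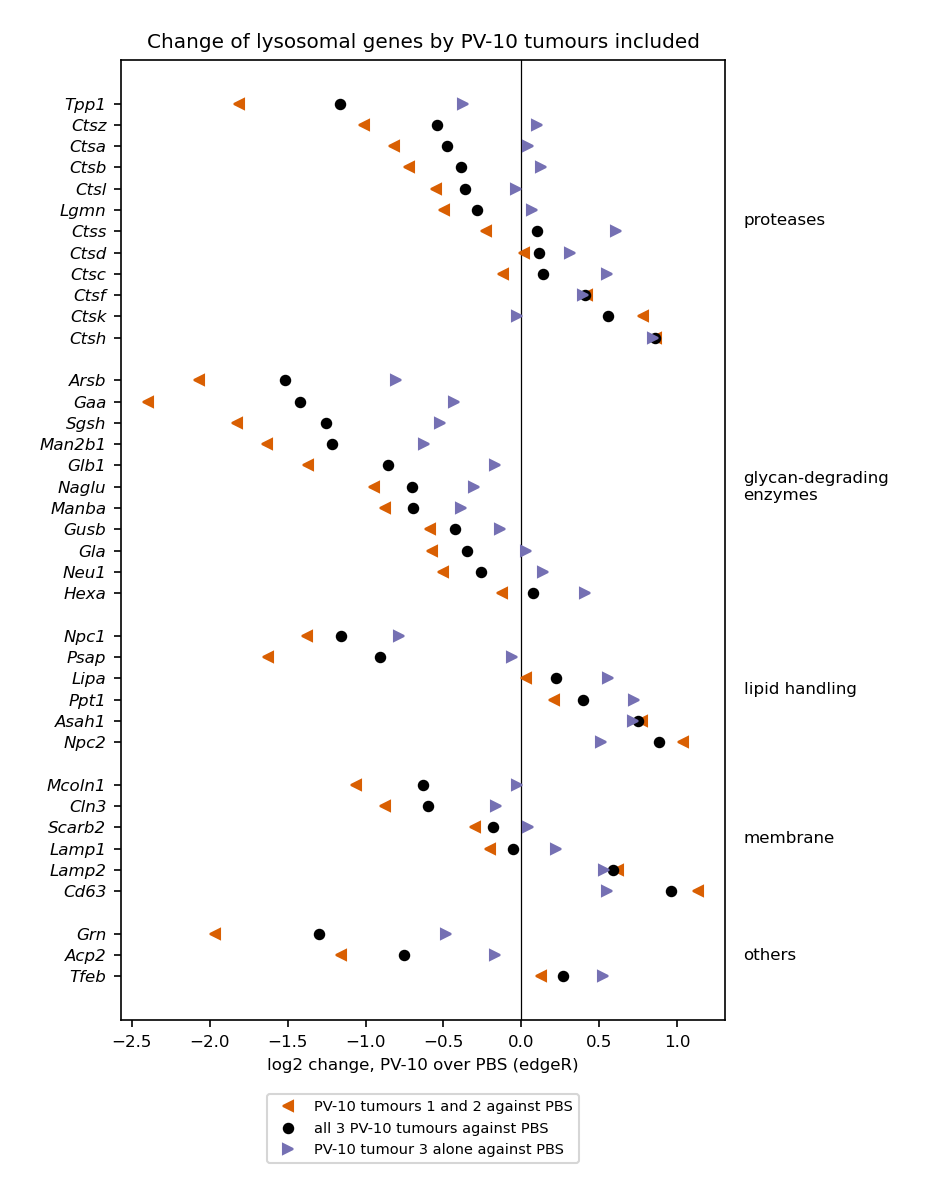
Log2 change of each lysosomal gene against the 3 PBS tumours (x axis, edgeR estimates) for PV-10 tumours 1 and 2, all 3 PV-10 tumours, and PV-10 tumour 3 alone, by role class (rows). The estimates for PV-10 tumour 3 lie nearest 0 for most glycan-degrading enzymes, while Ctsh, Asah1 and Lamp2 differ little between the 3 estimates.

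The relation of counts to transcript length differed between the PV-10 and PBS libraries, and longer members had lower log2 changes. Slopes were fitted on each gene's log2 CPM less its mean over all libraries, for genes with a mean log2 CPM above 0. They therefore compare libraries with each other and are not absolute. Per doubling of the longest transcript they were -0.290, -0.252 and -0.0858 in PV-10 tumours 1, 2 and 3, against 0.126, 0.275 and 0.227 in PBS tumours 1, 2 and 3. Across the 38 members the log2 change correlated with log2 effective length at Pearson r = -0.37, and across 21828 genes at -0.0755. These are correlations across genes of the same libraries, which are not independent replicates. Removing each library's length trend left 0 members called and 1 gene in the table (0.00458%), and the members' median at -0.17. Under that setting Arsb stood at -1.09, Gaa at -1.33, Sgsh at -0.98, Grn at -1.24, Cd63 at 0.47, Ctsh at 0.47 and Asah1 at 1.00, while Ctsb turned to 0.16. The part of RNA quality in the members' changes was not tested.

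Markers of macrophages, cells rich in lysosomes, were present in all 6 tumours. The 14 listed, all tested and none called, had a median log2 change of -0.15 and summed to 2413, 2409 and 2406 CPM in the PV-10 tumours, against 2550.0, 1752 and 1731 CPM in the PBS tumours, with none of the 14 at 0 in any tumour. The sums overlapped, and within the PV-10 group they were almost equal, but single markers went both ways, with 5 log2 changes above 0 and 9 below. By TPM the same markers summed to 772, 873 and 1167 TPM in the PV-10 tumours, against 1242, 1142 and 1007 TPM in the PBS tumours, again with overlap. Lyz2, the lysozyme that macrophages secrete, had 355, 414 and 398 TPM in the PV-10 tumours and 337, 353 and 254 TPM in the PBS tumours, whereas Csf1r, the receptor for the macrophage growth factor, had 7.26, 16.3 and 18.5 TPM in the PV-10 tumours and 50.1, 38.0 and 34.5 TPM in the PBS tumours. Of 5 general leukocyte markers, 1 rose (20.0%, against 3.17% of all genes) and none fell, with 3 log2 changes above 0 and 2 below. The one was Tyrobp, a signalling adaptor of myeloid cells (log2 change 1.57, SE 0.31, edgeR adjusted p = 0.0443). The median was 0.19, and Ptprc, or CD45, had a log2 change of 0.19. By TPM the 5 summed to 105, 125 and 168 in the PV-10 tumours, against 190, 234 and 214 in the PBS tumours, without overlap. By CPM they summed to 240, 266 and 376 in the PV-10 tumours, against 417, 370 and 380 in the PBS tumours, with overlap. The 5 skeletal muscle markers summed to 15.5, 92.0 and 1.75 TPM in the PV-10 tumours, against 13.1, 2.56 and 1.60 TPM in the PBS tumours, with PV-10 tumour 2 highest. The part of these cells in the members' changes was not tested.

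Other parts of the lysosomal pathway were mostly not called. Of 24 further hydrolases, 1 rose (4.17%, against 3.17% of all genes) and none fell, with a median log2 change of -0.49. The one was Ggh, which trims polyglutamate from folates (47.6 ± 14.1 CPM in PV-10 and 13.7 ± 2.14 CPM in PBS tumours, SD, n = 3; log2 change 1.80, SE 0.30, edgeR adjusted p = 0.0443). Of 18 further membrane proteins tested none was called, with a median of -0.37. By CPM all PV-10 tumours were below all PBS tumours in 7 of the 18 (38.9%) and above in 2 (11.1%), against 16.8% and 22.0% of all genes. Cd68, the macrophage sialomucin, had 102 ± 28.5 CPM in PV-10 and 181 ± 87.0 CPM in PBS tumours, and Laptm5, a membrane protein of blood cells, had 103 ± 76.8 CPM in PV-10 and 248 ± 25.1 CPM in PBS tumours, neither past the test. Of 19 tested subunits and accessory proteins of the proton pump, 1 rose (5.26%, against 3.17% of all genes) and 1 fell (5.26%, against 1.92%), both in the membrane sector. Atp6v0b rose (125 ± 32.3 CPM in PV-10 and 43.4 ± 6.31 CPM in PBS tumours; log2 change 1.52, SE 0.29, edgeR adjusted p = 0.0443), and Atp6v0a1 fell (20.8 ± 9.09 CPM in PV-10 and 59.7 ± 5.87 CPM in PBS tumours; log2 change -1.52, SE 0.33, edgeR adjusted p = 0.0443), with a median of -0.19 over the list. Among 9 genes of mannose 6-phosphate tagging and sorting none was called and the median was -0.74, with 2 log2 changes above 0 and 7 below. By CPM all PV-10 tumours were below all PBS tumours in 7 of these 9 sorting genes (77.8%) and above in 1 (11.1%). There, M6pr, the small receptor, had 185 ± 32.3 CPM in PV-10 and 101 ± 13.1 CPM in PBS tumours (log2 change 0.87), and Gga1, an adaptor that sorts receptors, had a log2 change of -0.91.

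Of 22 regulators around TFEB and mTORC1, 2 rose (9.09%, against 3.17% of all genes) and 1 fell (4.55%, against 1.92%), with a median log2 change of 0.01. Lamtor3 rose (107 ± 39.7 CPM in PV-10 and 35.0 ± 1.57 CPM in PBS tumours; log2 change 1.61, SE 0.33, edgeR adjusted p = 0.0443) and Lamtor5 rose (158 ± 80.0 CPM in PV-10 and 38.7 ± 17.0 CPM in PBS tumours; log2 change 2.03, SE 0.46, edgeR adjusted p = 0.0457), both subunits of the Ragulator complex that anchors mTORC1 to the lysosome. Mtor, the kinase itself, fell (24.1 ± 6.67 CPM in PV-10 and 55.1 ± 6.47 CPM in PBS tumours; log2 change -1.19, SE 0.28, edgeR adjusted p = 0.0477). Of 20 genes of lysosomal membrane damage and autophagy none was called and the median was -0.14. Lgals1, a galectin that binds exposed glycans, had 1717 ± 534 CPM in PV-10 and 849.6 ± 143 CPM in PBS tumours (log2 change 1.02), and Rab7, the GTPase of late endosomes, had a log2 change of 0.13. With each library's length trend removed, Lamtor3 stood at 1.36, Lamtor5 at 1.18, Mtor at -0.51, Ggh at 1.94, Atp6v0b at 0.77 and Atp6v0a1 at -1.11, none of them called.

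Several endogenous inhibitors of cathepsins rose in PV-10 tumours, while no protease of the set passed the test; the lists were not tested against each other. Of 11 listed inhibitors 8 were tested, 5 rose (62.5%, against 3.17% of all genes) and none fell, with a median log2 change of 1.75. The 3 not tested, Stfa1, Stfa2 and Stfa3, had 0 counts in all 6 tumours. Cstb, or stefin B, a cytosolic inhibitor of cathepsins B, H and L, had 476, 425 and 165 CPM in PV-10 tumours 1, 2 and 3, against 129.8, 96.6 and 85.7 CPM in PBS tumours 1, 2 and 3. All PV-10 tumours were above all PBS tumours, with PV-10 tumour 3 the lowest of its group (355 ± 167 CPM in PV-10 and 104 ± 22.9 CPM in PBS tumours, SD, n = 3; log2 change 1.77, SE 0.41, edgeR adjusted p = 0.0462). Serpinb6a, an intracellular serpin whose human counterpart inhibits cathepsin G, had 611, 743 and 281 CPM in the PV-10 tumours, against 142, 144 and 115 CPM in the PBS tumours. The groups were far apart (log2 change 2.03, SE 0.38, edgeR adjusted p = 0.0443). Ctla2a, whose product resembles a cathepsin propeptide, had 129, 194 and 88.7 CPM in the PV-10 tumours, against 16.3, 40.3 and 27.0 CPM in the PBS tumours. It rose as well (log2 change 2.30, SE 0.42, edgeR adjusted p = 0.0443), as did its paralog Ctla2b (28.2 ± 17.4 CPM in PV-10 and 3.40 ± 0.227 CPM in PBS tumours; log2 change 3.05, SE 0.53, edgeR adjusted p = 0.0443) and Cst6, or cystatin M (65.8 ± 18.2 CPM in PV-10 and 19.8 ± 9.96 CPM in PBS tumours; log2 change 1.73, SE 0.40, edgeR adjusted p = 0.0457). Cst3, cystatin C, the most abundant secreted inhibitor, had 352 ± 25.9 CPM in PV-10 and 227 ± 33.0 CPM in PBS tumours and did not pass the test (log2 change 0.63, SE 0.26, edgeR adjusted p = 0.136).

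Levels of inhibitors and cathepsins were also set side by side by TPM. The TPM of Ctsb over that of Cstb was 0.155, 0.158 and 0.778 in the PV-10 tumours, against 0.916, 1.22 and 1.31 in the PBS tumours, without overlap. The ratio of Ctsh to Ctsb was 1.12, 1.44 and 0.641 in the PV-10 tumours, against 0.419, 0.272 and 0.392 in the PBS tumours. On log2(TPM + 1) with limma, Serpinb6a (1.10), Ctla2a (1.45) and Ctla2b (1.63) rose, while Cstb (0.80) and Cst6 (0.89) did not pass. With the length trend removed none of the 5 was called, at 0.70 for Cstb, 0.66 for Cst6, 1.91 for Serpinb6a, 1.83 for Ctla2a and 2.45 for Ctla2b. Under that setting Ctsb stood at 0.16 and Ctsh at 0.47, while with the trend left in they stood at -0.39 and 0.85. The changes of Ctsb and Cstb, and of Ctsh and Ctsb, thus lay closer together once the trend was removed. The ratios were not recomputed under that setting. Ctla2a and Ctla2b are close paralogs and Serpinb6a is one of a multigene family, so the share of reads given to each is uncertain. Leaving out any 1 tumour other than PV-10 tumour 3 left none of these 5 inhibitors called, nor Ggh, Atp6v0b, Atp6v0a1, Lamtor3, Lamtor5, Mtor and Tyrobp, with edgeR adjusted p of 0.0735 to 0.220 over these genes. Between 1 and 5 genes of the whole table were called in those fits.

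**Figure D5:**
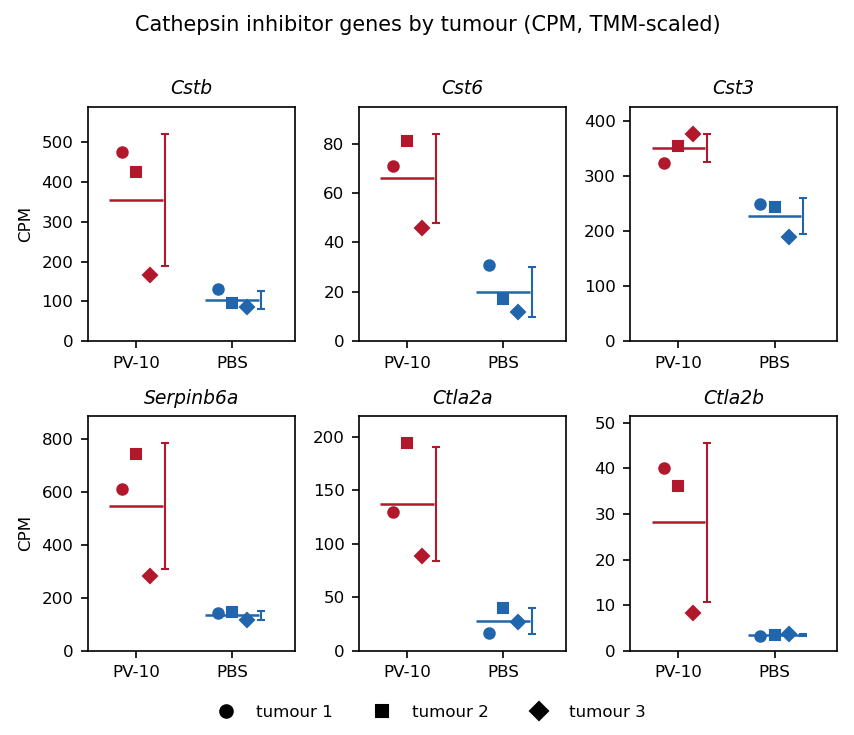
TMM-scaled CPM (y axis, linear from 0) of 6 cathepsin inhibitor genes in 3 PV-10 and 3 PBS tumours; points are tumours, lines are means and bars are 1 SD, drawn no lower than 0. In each panel every PV-10 tumour lies above every PBS tumour, and Cst3 is the one that did not pass the test.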

How the data were processed

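RNA of 6 tumours, 3 injected with PV-10 and 3 with PBS, was sequenced from strand-specific libraries. Per the labels' protocols, adapters were cut off with cutadapt 1.8.1, STAR 2.7.7a mapped the reads to mm10, and RSEM 1.3.0 gave values per gene of Gencode vM21. One of the deposited tables gives raw counts per gene as whole numbers, and the deposited TPM table gives the same genes scaled by length. Columns were matched to tumours by the library names in the labels.

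From the counts, genes were tested with edgeR 4.0.16 (R 4.3.3; quasi-likelihood F test, robust fit, TMM scaling, default expression filter), with Benjamini-Hochberg adjustment over 22056 genes and calls at an adjusted p under 0.05. CPM values are TMM-scaled; standard errors are the size of the log2 change divided by the root of F. The script was tested on simulated data. TPM were tested on log2(TPM + 1) with limma 3.58.1, where a fold change of a low gene is understated. Totals of 36730318 to 98717951 counts put 3 counts at 0.0304 to 0.0817 CPM; reads carry no molecular identifiers, so this covers counting error only. RSEM divides reads among similar genes.

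The members and gene lists were chosen with earlier results of these data known. Values per tumour are given for called members, the 3 of each class with the highest mean TPM, and Tfeb, Mcoln1, Ctsb, Ctsl, Ctss, Ctsk, Lamp1, Lamp2, Npc1 and Gla; Ctsh, Tpp1, Sgsh and Naglu were added after their values were seen. Other lists name called genes or their most abundant ones. Promoters are from RefSeq (GRCm38.p6). Alternatives were DESeq2 1.42.0 and its size factors, other scalings, filters, tools and pseudocounts, removal of length and GC trends (splines with 5 degrees of freedom), a replicate block, PV-10 tumour 3 alone, each tumour left out, and, added after seeing the data, protein-coding TPM.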

Additional observations from a re-analysis of the deposited data

How the results depend on the processing

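Across the 22 alternatives the members gave 836 log2 changes, of which 679 kept their direction and side of the threshold, 87 passed it anew, 9 lost it and 61 turned sign, none of these while called. In all, 19 members never turned sign, 22 were called under some alternative and 16 under none. The number of members called was 1 of 38 as reported, with 1122 genes called in the table (5.09% of those tested). Percentages below are likewise shares of the genes tested under that setting. With DESeq2 it was 11, 4 higher and 7 lower (7967 genes or 27.4%). With DESeq2 size factors it was 5, 3 higher and 2 lower (2537 genes or 11.5%, 1469 higher and 1068 lower). Library size alone gave 4, all lower (2441 genes or 11.1%, 980 higher and 1461 lower), and limma-voom gave 4 (2097 genes or 9.51%). A mean count of at least 50 gave 5 (2705 genes or 17.1%), and protein-coding genes alone gave 5 (2805 genes or 17.3%). With no low-count filter it was 8, all lower (4664 genes or 11.9%). On log2(TPM + 0.1) it was 10, all lower (3175 genes or 14.4%, 342 higher and 2833 lower, member median -1.09). It was also 10, all lower, on log2(TPM + 1) (2917 genes or 13.2%, 162 higher and 2755 lower, member median -1.03) and on protein-coding TPM (2788 genes or 17.3%). It was 0 with the effective-length trend removed (1 gene), with length and GC trends removed (1 gene), and with PV-10 tumour 3 alone (18 genes; member median 0.0439). Leaving out each tumour in turn gave 0 to 22 members and 1 to 11399 genes, the highest without PV-10 tumour 3. The median of all genes was 0.30 with TMM, 0.21 with library size alone and -0.21 on log2(TPM + 1). Causes of these differences were not tested.

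Members whose log2 change turned sign were Lamp1 0.0483 with DESeq2 size factors, Lamp1 0.0417 with DESeq2, Lamp1 0.0991 with the stricter filter, Lamp1 0.0747 with protein-coding genes alone, Hexa -0.0320 with library size alone and Hexa -0.0169 with no filter. With PV-10 tumour 3 alone they were Ctsa 0.0451, Ctsb 0.13, Ctsk -0.0304, Ctsz 0.0971, Lgmn 0.0661, Gla 0.0300, Neu1 0.14, Lamp1 0.22 and Scarb2 0.0426. With the effective-length trend removed they were Ctsb 0.16, Ctss -0.12, Lamp1 0.10 and Scarb2 0.42, and with length and GC trends removed Ctsa 0.00358, Ctsb 0.0278, Ctsc -0.19, Ctsk -0.000385, Ctsl 0.00432, Ctss -0.58, Neu1 0.15 and Scarb2 0.12. On log2(TPM + 0.1) they were Ctsc -0.98, Ctsd -0.79, Ctss -0.76, Hexa -0.75, Asah1 -0.0517, Lipa -0.59, Ppt1 -0.42 and Lamp2 -0.15, on log2(TPM + 1) Ctsc -0.97, Ctsd -0.79, Ctss -0.76, Hexa -0.71, Asah1 -0.0510, Lipa -0.56, Ppt1 -0.40 and Lamp2 -0.15, and on protein-coding TPM Ctsc -0.57, Ctsd -0.39, Ctss -0.36, Hexa -0.33, Lipa -0.18 and Ppt1 -0.0147. With tumours left out in turn the ranges of those that turned were Lamp1 -0.20 to 0.0719, Tfeb -0.0757 to 0.58, Ctss -0.23 to 0.36, Hexa -0.12 to 0.21 and Ctsc -0.12 to 0.25.

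The replicate numbers are shared by the groups, but same-numbered tumours did not deviate together (correlations of -0.0486, 0.0711 and 0.0722). These values gave no sign of pairing by number. With 3 tumours a group they cannot exclude it, and a shared batch or day is not stated. With the replicate block 5 members were called, all lower (Gaa, Sgsh, Arsb, Npc1 and Grn; 2872 genes), and with the replicate block and the effective-length trend removed 0 (238 genes), where Ctsb 0.16, Ctss -0.17, Lamp1 0.11 and Scarb2 0.42 turned sign. A count of 3 came to at most 0.0817 CPM, under the value of every member in every tumour. Precision was limited by the spread between 3 tumours a group, with a biological coefficient of variation of 0.777 over all genes.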
